A study of Mus musculus with 468 samples.

Results

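The results are those of WT FGF21 in epididymal white adipose tissue (EWAT) of C57BL/6 mice fed a high fat diet (WT-HFD). The arrays were chosen by their labels alone, as EWAT, WT-HFD, and WT FGF21 or vehicle, and they are 17 of the 468 arrays of the series. WT FGF21 was given under the skin at 1.25 mg/kg BID for 2 d or 5 d and the vehicle was saline on the same schedule. All mice were males that began the diet shortly before treatment at 8 weeks of age, and at both days the depots were collected about 6 h after dosing ended. The groups hold 5 WT FGF21 and 4 vehicle mice at day 2, and 5 WT FGF21 and 3 vehicle mice at day 5. Mice are named here by the replicate number in their label, and no vehicle array is shared between the days. The other arrays come from other depots, from chow-fed and db/db mice and from a pegylated FGF21, and they appear below only where the WT-HFD EWAT response is set against them.

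FGF21 is an endocrine FGF that signals through an FGF receptor, in fat mainly Fgfr1, bound to the co-receptor Klb. The receptor activates the Ras and ERK kinases, which within an hour induce immediate early transcription factors such as Egr1 and Fos, and feedback inhibitors of the same cascade such as the Sprouty proteins and the dual specificity phosphatases (Dusp). White adipose tissue also runs a circadian clock, a loop in which the activators Arntl (BMAL1) and Clock drive Per, Cry, Nr1d1 and Dbp, whose products in turn repress Arntl or read out the phase.

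The arrays were alike in level, with a median intensity of 40.0 to 42, and each array correlated with the other WT-HFD EWAT arrays at a median of 0.979 to 0.990 over probe sets, a description over 1 tissue. The lowest was WT FGF21 day 5 mouse 5, with an array weight of 0.286. Vehicle day 2 mouse 5 was the next lowest at 0.983 and held transcripts of the epididymis, which adjoins this fat pad. Adam7 was 2522 and Lcn9 was 5663 in that array, against at most 53.2 and at most 52.0 in the other 16 arrays. Adipocyte markers were high in every array, with a sum over 12 genes of 86600 to 95600 in WT FGF21 mice and 83970 to 92530 in vehicle mice at day 2, and of 90250 to 95050 in WT FGF21 mice and 88630 to 93900 in vehicle mice at day 5. Intensity is on the linear scale of the deposited values, and a log2 difference is WT FGF21 minus vehicle throughout.

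At day 2, 821 of 43681 probe sets (1.88%) differed between WT FGF21 and vehicle, 393 of them higher (0.9%) and 428 lower (0.98%). At day 5 there were 988 (2.26%), with 561 higher (1.28%) and 427 lower (0.978%). The test was limma's, adjusted by Benjamini-Hochberg over all probe sets, and a call needed a fold of 1.2 or more beside an adjusted p below 0.05. A set of 235 probe sets passed at both days, 28.6% of those of day 2 and 23.8% of those of day 5, and all 235 moved the same way, 143 higher and 92 lower. Of the probe sets that passed at day 2, 90.1% had the same sign at day 5, against 62.7% of all probe sets. In the plot of the day 5 differences against those of day 2, Tagln, Itgad, Maff, Pnpla3 and Axin2 lie far from 0 on both axes, whereas Arntl, Dbp and Ciart are far from 0 only on that of day 5. Without vehicle day 2 mouse 5, which carried the epididymal transcripts, 676 probe sets passed at day 2. The day 5 count rested more on single mice, with 600 without vehicle mouse 4, 591 without vehicle mouse 5 and 1375 without WT FGF21 mouse 5. As these are pieces of whole tissue, fewer cells of a type and less RNA per cell cannot be told apart.

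**Figure D1:**
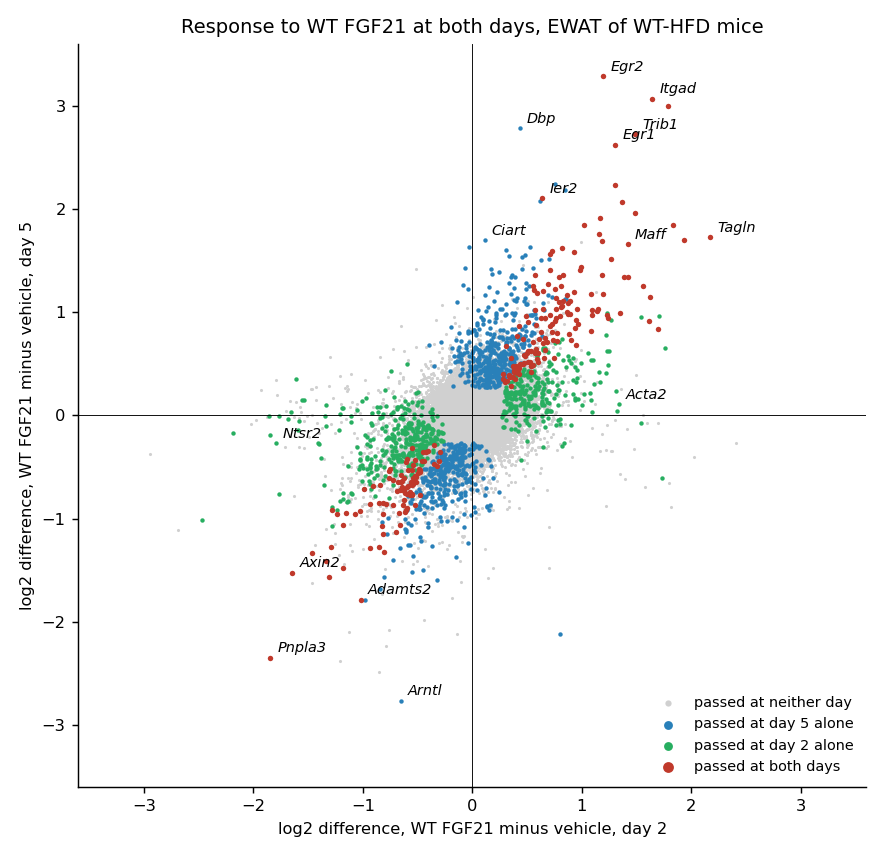
Log2 difference of WT FGF21 minus vehicle at day 5 (y axis) against that at day 2 (x axis) for every probe set, with or without a gene symbol. Colours give the day at which it passed (adjusted p below 0.05, fold 1.2 or more). The probe sets that passed at both days lie in the upper right and lower left, and Arntl, at -2.77, passed at day 5 alone.

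For single genes, a call is an adjusted p under 0.05, with 1 probe set per gene. Over the 21931 genes measured, 1.32% were called higher and 1.33% lower at day 2, and 1.71% higher and 1.45% lower at day 5, with a median log2 difference of 0.00751 and 0.00875. The counts of the gene lists below are read against these shares, and the bar chart of the lists gives them side by side.

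Of 18 immediate early genes, which ERK induces first and which are mostly transcription factors, 5 rose and 0 fell at day 2. At day 5, 8 rose and 0 fell, with a median log2 difference of 0.37. Among 18 genes of FGF receptor feedback and ERK-induced transcription, 3 rose at day 2 and 5 at day 5, and none passed as lower. None of the 8 genes of the receptor complex passed limma's test at either day, and 0 had an unadjusted p under 0.05. Klb differed by 0.20 ± 0.172 (SE) at day 2 and by -0.09 ± 0.188 at day 5, and Fgfr1 by 0.13 ± 0.107 and -0.02 ± 0.117.

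Egr1, a zinc finger transcription factor induced by ERK, was 9313, 8830, 9160, 9204 and 10400 in WT FGF21 mice 1 to 5 at day 5, against 1677, 1583 and 1317 in vehicle mice (fold 6.17, log2 difference 2.63 ± 0.337, adjusted p = 1.65e-08). At day 2 it was 9317, 8578, 6790, 1172 and 1053 in WT FGF21 mice 1 to 5, against 1464, 1606, 1488 and 1396 in vehicle mice (log2 difference 1.31 ± 0.31, adjusted p = 0.00753). The groups were apart at day 5, but at day 2 WT FGF21 mice 1, 2 and 3 were far above every vehicle mouse and mice 4 and 5 were below every one. Here and for the other genes, the SE (±) and p pool the spread within all 24 EWAT groups. They do not measure the spread of the compared mice alone. At day 2 the SD of log2 Egr1 was 1.59 in WT FGF21 mice and 0.0839 in vehicle mice. Egr2, a relative of Egr1, was 5720, 3943, 1987, 345.2 and 344.4 in WT FGF21 mice at day 2, against 457.2, 535, 550.7 and 1032 in vehicle mice. At day 5 it was 5918, 3013, 5380, 4775 and 6165 in WT FGF21 mice, against 742.1, 523.9 and 326.3 in vehicle mice (log2 difference 3.29 ± 0.382, adjusted p = 5.58e-10), the widest rise of any gene that passed and did not overlap at that day. The same 2 WT FGF21 mice were the low ones for Egr2 at day 2. Ier2, an immediate early gene, was 503.3, 601.2, 724.7, 841.8 and 659.9 at day 5, against 159.9, 144.1 and 154.2 in vehicle mice. At day 2 it was 452.1, 417, 240.9, 144 and 137.4 in WT FGF21 mice, against 171.5, 161.9, 169.5 and 133.3 in vehicle mice. Mice 4 and 5 were within the vehicle range for it.

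This division of the day 2 mice ran through both lists. Of the 8 immediate early genes that rose at day 5, WT FGF21 mice 1, 2 and 3 were above every vehicle mouse at day 2 for 8, 8 and 7, and mice 4 and 5 for 0 and 0. Of the 5 feedback genes, mice 1, 2 and 3 were above for 5, 5 and 5, and mice 4 and 5 for 1 and 1. At day 5 every WT FGF21 mouse was above every vehicle mouse for all 8 and all 5 genes. These genes were picked because they passed as higher at day 5, so their separation at that day follows in part from the choice. The exception at day 2 was Maff, a small bZIP transcription factor, which was 423.4, 383.1, 384.5, 203 and 288.5 in WT FGF21 mice, against 109, 113.6, 152.4 and 116 in vehicle mice (log2 difference 1.42 ± 0.171, adjusted p = 9.91e-09). All 5 WT FGF21 mice were above the vehicle mice for Maff, with mouse 4 the lowest. Over all probe sets, called or not, the groups did not overlap in 2.58% as higher and 2.72% as lower at day 2. At day 5 the shares were 3.75% as higher and 3.39% as lower.

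**Figure D2:**
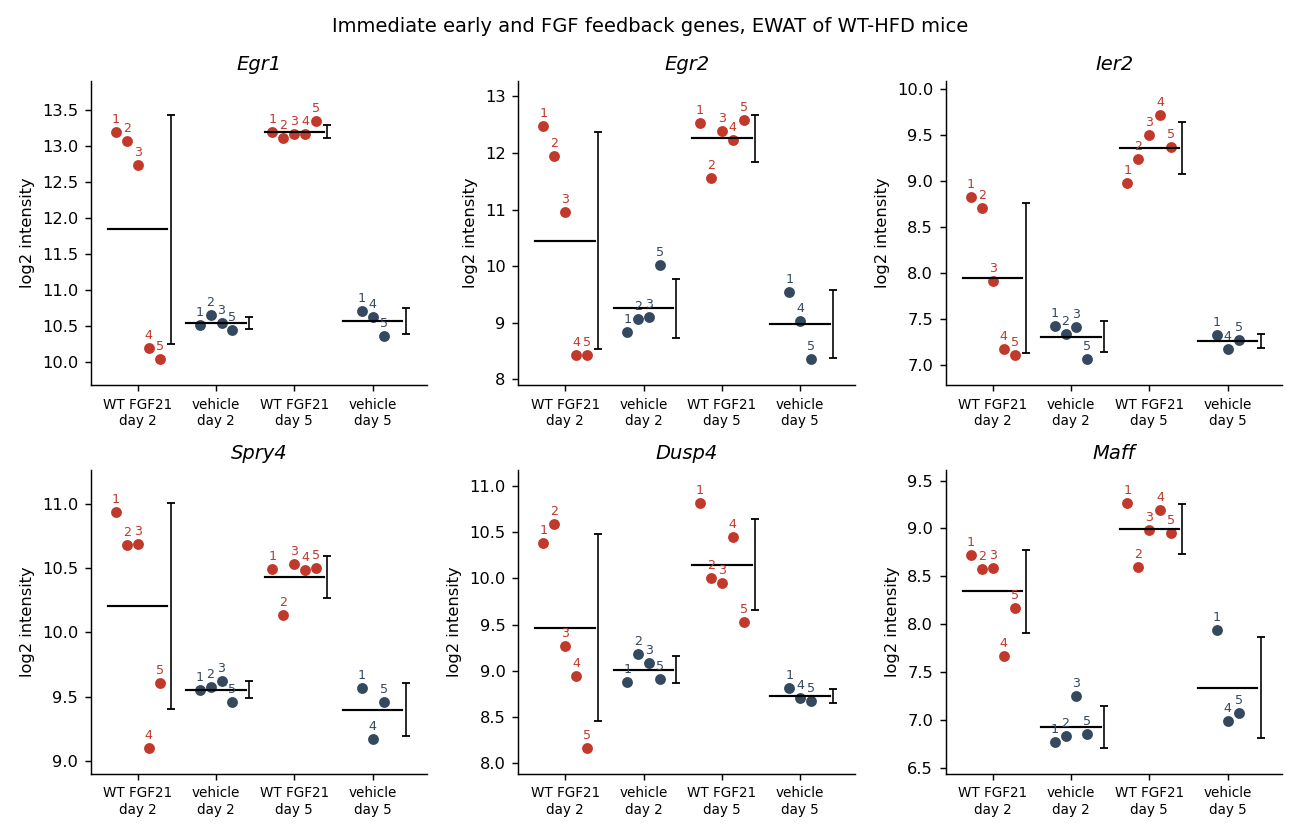
Log2 intensity of 6 immediate early and feedback genes in each EWAT of WT-HFD mice, with the replicate number of the label beside each point, the group mean as a line and the SD as a bar. At day 2, WT FGF21 mice 4 and 5 lie below the vehicle mice for Egr1 and Egr2, within their range for Ier2 and above them for Maff. At day 5 all WT FGF21 mice are above the vehicle mice.

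Among the feedback genes, Spry4, an inhibitor of receptor tyrosine kinase signalling, was 1959, 1646, 1650, 548 and 779 in WT FGF21 mice at day 2, against 751.7, 763.4, 788.1 and 704.2 in vehicle mice, and passed at both days (log2 difference 0.65 ± 0.154 and 1.03 ± 0.168). Dusp4, a phosphatase of ERK and other MAP kinases, did not pass at day 2 (0.46 ± 0.249, adjusted p = 0.509) and rose at day 5 (1.42 ± 0.271, adjusted p = 2.35e-04). Dusp6, an ERK phosphatase, rose by 0.42 ± 0.102 at day 5. Fosl1, an AP-1 subunit, rose by 1.16 ± 0.319 at day 2 and 1.75 ± 0.347 at day 5. Trib1, a pseudokinase outside these lists, was 2204, 2149, 1109, 302.8 and 319.1 in WT FGF21 mice at day 2, against 252.4, 350.2, 326.2 and 324.5 in vehicle mice, so mice 4 and 5 were again within the vehicle range. At day 5 Trib1 was 6.61-fold higher (log2 difference 2.72 ± 0.276, adjusted p = 2.9e-12). Junb, Zfp36, Btg2, Fos and Nr4a1 rose by 1.22 to 1.63 at day 5, and the neuronal activity gene Arc by 2.24 ± 0.318.

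Many immediate early genes are driven through the CArG box, the element of the serum response factor, and the promoter of Zfp36, an mRNA decay factor of the list, is shown as an example with its match in capitals. It is the 250 bases before the RefSeq start at chr7:28379229-28379478 on the - strand of GRCm38.p6.
Zfp36: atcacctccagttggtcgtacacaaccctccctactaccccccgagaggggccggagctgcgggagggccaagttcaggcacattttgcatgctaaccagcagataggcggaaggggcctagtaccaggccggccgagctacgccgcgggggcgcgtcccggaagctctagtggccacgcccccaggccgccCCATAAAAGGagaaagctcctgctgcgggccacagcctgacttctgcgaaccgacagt
A CArG box was found on either strand in 1.47% of 32851 promoters and in 2 of the 15 immediate early genes with a sequence (Egr2 and Zfp36), both among the 6 of them that passed at day 5. The percentage counts each start singly, whereas a gene counts if any of its starts has a match, and Egr2 has several starts. A match is a description of these letters, and binding was not measured.

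The day 2 calls in these lists depended on single WT FGF21 mice. Without mouse 1, 1 of the 18 immediate early genes and 1 of the 18 feedback genes passed, and without mouse 2 the counts were the same, 1 and 1. Without mouse 3, 3 and 1 passed. The day 2 difference of Egr1 was 0.97 without mouse 1 (adjusted p = 0.101), 1.0 without mouse 2 (0.0927) and 1.08 without mouse 3 (0.0503), and Ier2 lost its call without vehicle mouse 5 (0.55, adjusted p = 0.0961). At day 5 Dusp6 lost its call without vehicle mouse 1 (0.38, adjusted p = 0.0821).

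The same replicate numbers stood out in the other depots of WT-HFD mice at day 2. In inguinal fat (IWAT), Egr1 was 8369, 8691, 9068, 989.8 and 1091 in WT FGF21 mice 1 to 5, against 1530 to 1847 in 5 vehicle mice. In retroperitoneal fat (RPWAT) it was 7319, 7433, 5532, 1199 and 961.7, against 1363 to 1930 in vehicle mice, and in brown fat (BAT) 7117, 7317, 6470, 1655 and 1710, against 822.3 to 2390 in vehicle mice. In all 4 depots numbers 4 and 5 were within or below the vehicle range and numbers 1, 2 and 3 above it. The labels do not say that a number marks 1 mouse across depots, and they give no difference in dose or hour for these mice. In EWAT of chow-fed mice at day 2, by contrast, all 5 WT FGF21 mice were high for Egr1, at 4736 to 5500, against 630.6 to 935.3 in vehicle mice.

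Clock genes made up the second large group, and mostly at day 5. Of 17 clock genes, 3 rose and 0 fell at day 2, while 9 rose and 2 fell at day 5, with a median log2 difference of 0.04 at day 2 and 0.99 at day 5. The 2 that fell are the positive limb of the loop, Arntl and Clock, and the 9 that rose are Per1, Per2, Per3, Nr1d1, Nr1d2, Dbp, Tef, Hlf and Ciart, which repress the activators or belong to the output. Npas2, Cry1, Cry2 and the other members did not pass.

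The sequence before the transcription start of 4 of these genes is shown for the elements the loop acts through, from the RefSeq starts of GRCm38.p6. The E-box, bound by Arntl and Clock, was searched as CACGTG and the D-box, bound by Dbp, Tef and Hlf, as TTATGNAA, in the 250 bases before each start and on both strands, and matches are in capitals. An E-box was found in 6.02% of 32851 promoters and in those of 5 of the 15 clock genes with a sequence (Per1, Cry1, Tef, Bhlhe41 and Ciart), 3 of them among the 10 that passed at day 5. A D-box was found in 3.07% of promoters and in those of Per1 and Per3. The percentages count each start singly, whereas a gene counts if any of its starts has a match, so the 2 are not on the same footing. The Per1 window also holds 1 D-box, not in capitals, and Per1 and Tef each have a further start whose window is not shown. The first sequence is Per1 at chr11:69098699-69098948 on the + strand with 1 E-box, the second Tef at chr15:81802423-81802672 on the + strand with 1 E-box, the third Ciart at chr3:95882229-95882478 on the - strand with 3 E-boxes, and the last Per3 at chr4:151044666-151044915 on the - strand with 2 D-boxes.
Per1: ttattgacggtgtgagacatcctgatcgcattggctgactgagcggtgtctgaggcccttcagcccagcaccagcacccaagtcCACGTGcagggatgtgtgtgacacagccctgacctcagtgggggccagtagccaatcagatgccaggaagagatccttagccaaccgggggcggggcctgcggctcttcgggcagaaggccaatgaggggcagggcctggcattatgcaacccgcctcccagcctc
Tef: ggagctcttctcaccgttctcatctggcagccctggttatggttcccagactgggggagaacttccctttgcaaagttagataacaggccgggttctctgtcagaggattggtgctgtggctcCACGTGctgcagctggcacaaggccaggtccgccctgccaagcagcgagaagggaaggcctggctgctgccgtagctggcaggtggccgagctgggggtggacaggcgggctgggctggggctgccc
Ciart: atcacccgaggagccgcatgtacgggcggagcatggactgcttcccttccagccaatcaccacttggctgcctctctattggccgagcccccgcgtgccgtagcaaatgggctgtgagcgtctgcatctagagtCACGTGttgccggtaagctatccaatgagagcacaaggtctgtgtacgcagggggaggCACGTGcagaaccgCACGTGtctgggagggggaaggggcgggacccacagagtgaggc
Per3: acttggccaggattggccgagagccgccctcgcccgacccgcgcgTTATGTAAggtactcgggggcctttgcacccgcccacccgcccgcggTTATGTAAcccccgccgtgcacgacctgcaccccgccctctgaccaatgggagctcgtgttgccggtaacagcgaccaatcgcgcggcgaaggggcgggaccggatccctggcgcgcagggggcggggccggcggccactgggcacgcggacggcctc
Here too binding was not measured.

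Arntl was 71.4, 77.9, 61.2, 67.8 and 59.9 in WT FGF21 mice at day 5, against 423.2, 459.6 and 493.9 in vehicle mice (fold 0.147, log2 difference -2.77 ± 0.233, adjusted p = 2.88e-16). At day 2 it was 202.7, 319.9, 297.9, 186.8 and 227.5 in WT FGF21 mice, against 442.2, 320.4, 357.8 and 414.2 in vehicle mice (-0.66 ± 0.214, adjusted p = 0.0954). Each WT FGF21 mouse was below each vehicle mouse at both days, narrowly so at day 2. A second, dimmer probe set of Arntl differed by 0.25 at day 5 (adjusted p = 0.578), so the fall rests on 1 probe set. Clock, its partner, was 911.1 to 1044 in WT FGF21 mice at day 5, against 1471 to 1629 in vehicle mice (-0.68 ± 0.115, adjusted p = 2.32e-05).

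Dbp, a D-box activator that follows the loop closely, was 2655, 1882, 2116, 2339 and 1289 in WT FGF21 mice at day 5, against 379.9, 221.5 and 290.1 in vehicle mice (fold 6.89, log2 difference 2.78 ± 0.335, adjusted p = 1.81e-09). At day 2 it was 1304, 551.3, 394.4, 770.8 and 494.4 in WT FGF21 mice, against 557.3, 564.9, 449.4 and 360.3 in vehicle mice, and the groups overlapped. Per2, a repressor of the loop, was 959.9, 723.7, 590.2, 726.7 and 570.3 in WT FGF21 mice at day 2, against 279.3, 314.3, 299.5 and 545 in vehicle mice (1.02 ± 0.226, adjusted p = 0.00327). At day 5 it was 1143 to 1303 in WT FGF21 mice, against 280.6 to 435.9 in vehicle mice (1.85 ± 0.246). Per2 was thus above the vehicle range in every WT FGF21 mouse at both days, mice 4 and 5 of day 2 included. Per1 rose by 0.76 ± 0.194 at day 2 and 1.14 ± 0.211 at day 5, and Nr1d1 (REV-ERB alpha), a repressor of Arntl, by 0.81 ± 0.164 and 1.05 ± 0.179.

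Per3 was 466.8, 341.8, 397.6, 408.7 and 220.9 in WT FGF21 mice at day 5, against 105, 117.5 and 122.4 in vehicle mice (1.63 ± 0.24), while the day 2 difference was -0.03 ± 0.22. Ciart, a repressor of the Arntl and Clock complex, was 179.2, 87.5, 167.6, 210.1 and 87.6 in WT FGF21 mice at day 5, against 40.5, 44.5 and 41.97 in vehicle mice (1.70 ± 0.199). Hlf, a relative of Dbp, rose by 1.43 ± 0.202, Tef by 1.05 ± 0.159 and Nr1d2 by 0.99 ± 0.208 at day 5. In none of these, which were picked as called at day 5, did the WT FGF21 and vehicle mice of that day overlap. The call of Per1 at day 2 was lost without WT FGF21 mouse 1 (0.62, adjusted p = 0.107), without vehicle mouse 1 (0.71, 0.0625) and without vehicle mouse 2 (0.70, 0.0759).

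**Figure D3:**
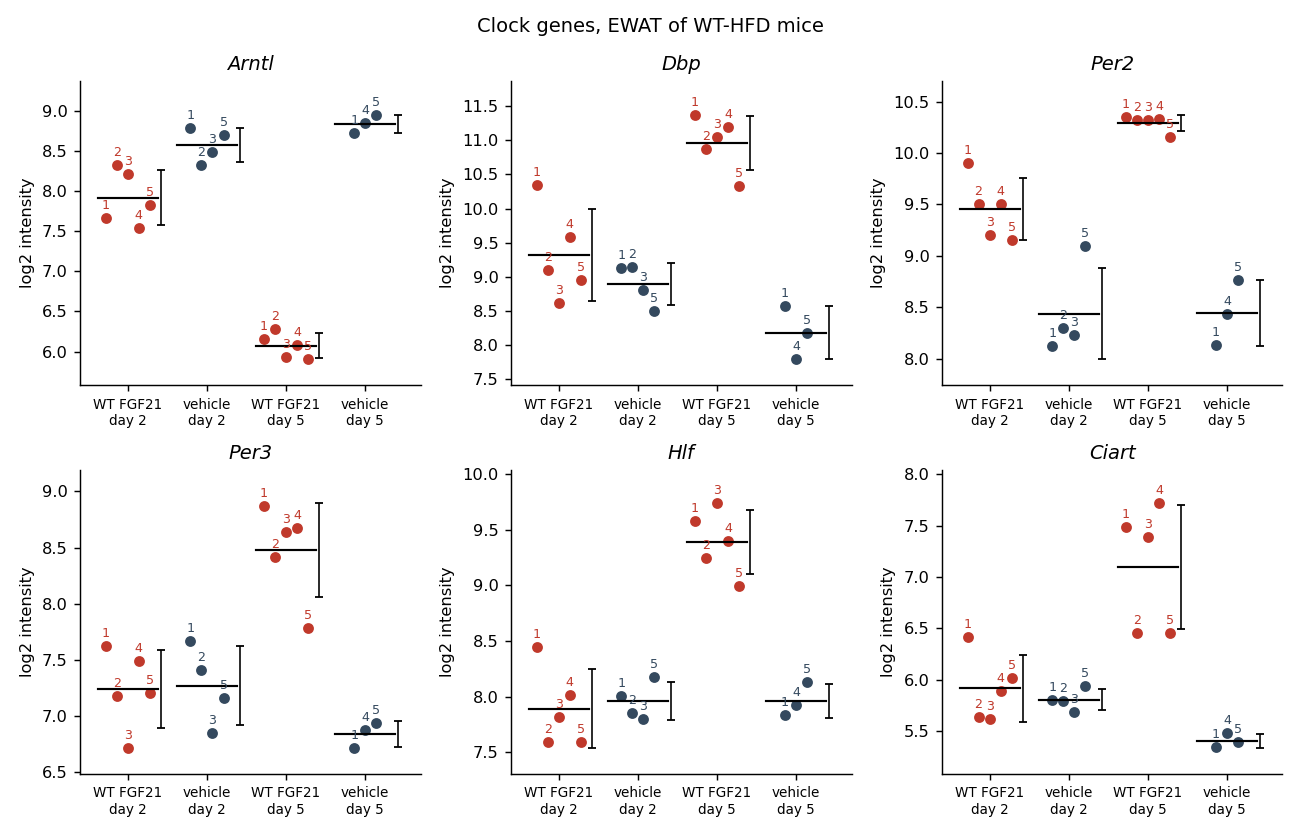
Log2 intensity of 6 clock genes in each EWAT of WT-HFD mice, with the replicate number beside each point, the group mean as a line and the SD as a bar. At day 5 the WT FGF21 mice lie below the vehicle mice for Arntl (59.9 to 77.9 against 423.2 to 493.9) and above them for the other 5 genes, and at day 2 the groups are separate for Arntl and Per2 alone.

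The responses of Arntl, Dbp, Per3, Hlf and Ciart differed between the days when that difference itself was tested, 4 higher and 1 lower of the 17 clock genes, against 0.0319% higher and 0.0228% lower of all genes. Day 5 minus day 2 was -2.11 for Arntl (adjusted p = 6.91e-05), 2.35 for Dbp (0.00638), 1.66 for Per3 (0.00712), 1.49 for Hlf (0.00338) and 1.58 for Ciart (9.18e-04). Vehicle mice of day 5 and day 2 differed by 0.27 for Arntl (adjusted p = 0.759) and by -0.71 for Dbp (0.423). Arntl and Dbp also moved at day 5 in the other depots of WT-HFD mice, all past the test within their depot. The differences were -1.28 in IWAT, -2.38 in RPWAT and -2.42 in BAT for Arntl and 1.49, 2.17 and 1.98 for Dbp. By the methods the depots were taken from the same treatment groups of mice, so they are not independent repeats. The hour of the day at collection is not in the labels, so a difference in clock time between the groups and an effect of WT FGF21 cannot be told apart.

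Lipid genes were read in lists by function. In triacylglycerol synthesis, 1 of 11 genes rose at day 2 (Pck1) and 4 rose at day 5 (Gpam, Lpin1, Dgat1 and Gpd1), and none fell. In fatty acid uptake and binding, 1 of 10 fell at day 2 (Vldlr) and 3 rose at day 5 (Fabp5, Acsl1 and Slc27a1). In lipolysis and the lipid droplet, G0s2 fell at both days out of 12 genes, and Lipe and Fitm2 rose at day 5. Of 18 genes of de novo lipogenesis, Pnpla3 fell and Fads1 rose at both days. Of the 18 differences, 3 were positive at day 2 and 5 at day 5, with a median log2 difference of -0.303 and -0.125. An unadjusted p under 0.05 was found for 10 at day 2 and 4 at day 5. Without vehicle mouse 3 of day 2, Fads1 (0.52, adjusted p = 0.128) and Vldlr (-0.46, 0.154) lost their day 2 calls, and without vehicle mouse 1 of day 5, Fads1 lost that of day 5 (0.52, 0.203).

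Pnpla3, a lipid droplet protein whose transcript follows feeding and insulin, was 243, 177.6, 537.2, 706.4 and 609.6 in WT FGF21 mice at day 2, against 1464, 1375, 1124 and 1859 in vehicle mice (fold 0.278, log2 difference -1.85 ± 0.297, adjusted p = 1.57e-05). The day 5 values were 141.4, 301.1, 233.9, 119 and 263.8 in WT FGF21 mice, against 677, 1008 and 1533 in vehicle mice (-2.35 ± 0.324, adjusted p = 1.14e-07). It was the largest fall but Arntl at day 5 among the genes of the lists, and all WT FGF21 mice, mice 4 and 5 of day 2 included, were below all vehicle mice. Over the depots, which are not independent repeats, Pnpla3 also fell at both days in IWAT (-1.74 and -2.62), RPWAT (-1.24 and -1.75) and BAT (-2.01 and -0.98). G0s2, an inhibitor of the lipase ATGL, was 1898, 1740, 1599, 2058 and 2312 in WT FGF21 mice at day 2, against 3121, 3147, 2729 and 3070 in vehicle mice (-0.66 ± 0.163). On day 5 it was 554.9, 1705, 1465, 1913 and 1271 in WT FGF21 mice, against 2525, 2457 and 3021 in vehicle mice (-1.06 ± 0.177, adjusted p = 1.54e-05). The groups were apart at both days.

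Dgat1, which makes triacylglycerol from diacylglycerol, was 4167, 4279, 4225, 4796 and 4332 in WT FGF21 mice at day 5, against 2537, 2588 and 2693 in vehicle mice (0.74 ± 0.109, adjusted p = 7.38e-07). At day 2 it was 3681 to 4736 in WT FGF21 mice, against 3047 to 3705 in vehicle mice, and did not pass (0.28 ± 0.1, adjusted p = 0.155). Acsl1, an acyl-CoA synthetase, was 3555 to 4883 at day 5, against 2072 to 2633 in vehicle mice (0.83 ± 0.128). Gpam, Lpin1 and Gpd1, which act before Dgat1 in the pathway, rose by 0.65 ± 0.146, 0.66 ± 0.166 and 0.52 ± 0.11 at day 5, and the fatty acid binding protein Fabp5 by 1.03 ± 0.196. Pparg, the master regulator of adipocytes, rose by 0.54 ± 0.118 and Nr1h3 (LXR alpha) by 0.39 ± 0.101 at day 5. Vehicle mice of day 5 minus those of day 2 gave -0.39 for Dgat1, -0.33 for Gpam and -0.42 for Acsl1, which did not pass (adjusted p = 0.132, 0.388 and 0.166). The day 5 calls of Lpin1 (0.56, adjusted p = 0.13), Pparg (0.45, 0.0669), Nr1h3 (0.32, 0.2), Lipe (0.29, 0.178) and Fitm2 (0.31, 0.0991) were each lost without 1 vehicle mouse, and that of Slc27a1 without WT FGF21 mouse 4 (0.64, 0.155).

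**Figure D4:**
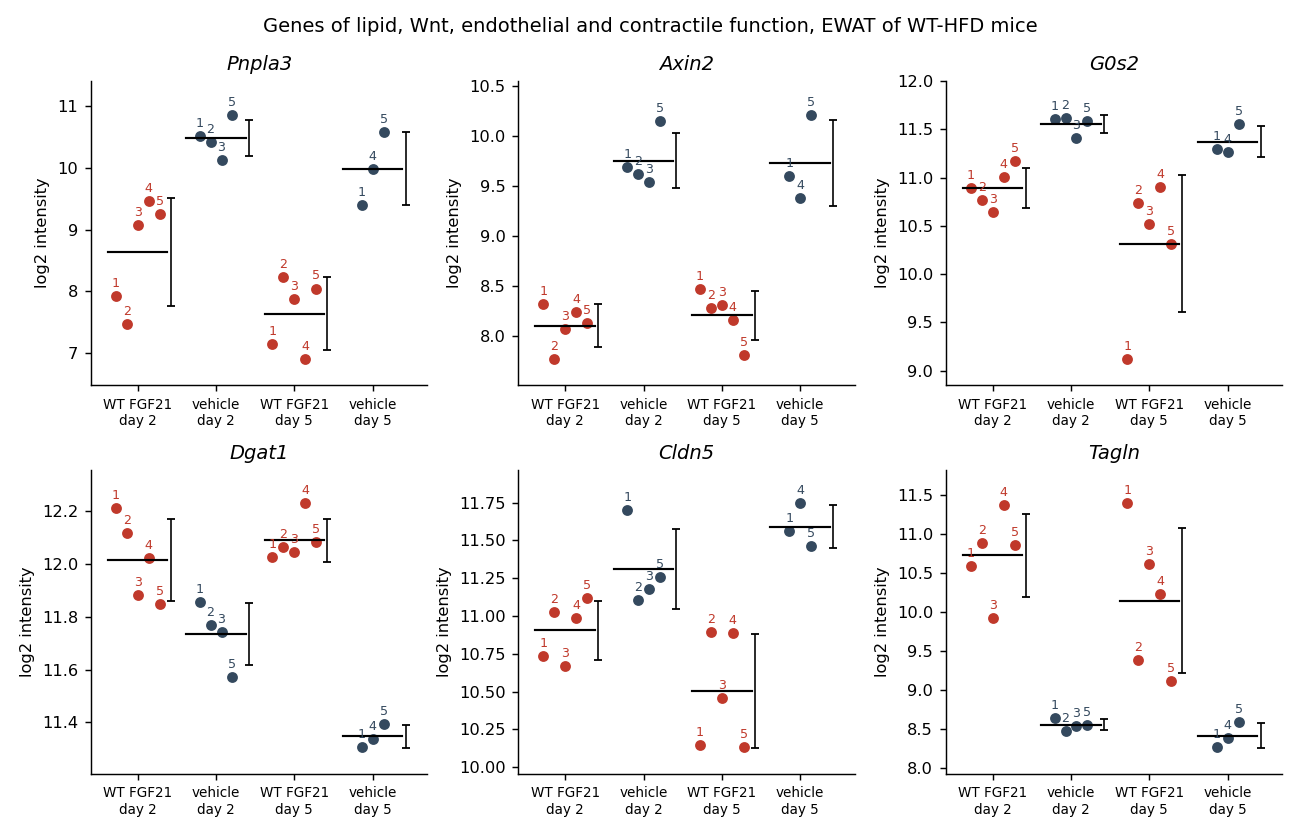
Log2 intensity of Pnpla3, Axin2, G0s2, Dgat1, Cldn5 and Tagln in each EWAT of WT-HFD mice, with the replicate number beside each point, the group mean as a line and the SD as a bar. Pnpla3, Axin2, G0s2 and Tagln are apart from vehicle at both days, with Tagln 2.17 higher at day 2, and Dgat1 and Cldn5 are apart at day 5.

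Pdk4 and Pck1 moved at day 2. Pdk4, which inhibits pyruvate dehydrogenase, was 6508, 6355, 5870, 6274 and 6611 in WT FGF21 mice at day 2, against 3820, 2598, 2909 and 3939 in vehicle mice (0.95 ± 0.145, adjusted p = 3.37e-06). At day 5 the groups overlapped (0.36 ± 0.157, adjusted p = 0.298). Pck1, the glyceroneogenic enzyme, was 6192 to 9116 in WT FGF21 mice at day 2, against 4391 to 6901 in vehicle mice (0.51 ± 0.125, adjusted p = 0.0101), and differed by -0.00 ± 0.136 at day 5. The Pck1 call did not hold without vehicle mouse 3 (0.39, adjusted p = 0.15). Of 16 genes of glucose uptake and glycolysis, Pdk4 and Gpi1 rose at day 2, and at day 5 Slc2a4 (GLUT4) and Hk2 rose and Pfkp fell. The rises of Slc2a4 and Hk2, of 0.50 ± 0.145 and 0.53 ± 0.158, were lost without any 1 of several mice (0.48 for Slc2a4 and 0.44 for Hk2 without vehicle mouse 1, adjusted p = 0.146 and 0.28).

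The oxidative genes gave few calls. Ucp1, the uncoupling protein of thermogenic fat, was 19.98 to 33.85 in WT FGF21 mice and 23.1 to 36.7 in vehicle mice at day 2. These levels are below the median intensity of the arrays, 40.0 to 42. At day 5 Ucp1 was 28.4 to 66.5 in WT FGF21 mice and 21.4 to 36.7 in vehicle mice, and the groups overlapped at both days (0.68 ± 0.405 at day 5, adjusted p = 0.545). Of 18 thermogenic genes, 0 rose at either day, while the coactivator Ppargc1b fell by 0.79 at day 2 and the respiratory subunit Cox8b by 1.37 at day 5, both calls lost without 1 vehicle mouse (-0.65 for Ppargc1b without mouse 1, adjusted p = 0.0824, and -1.34 for Cox8b without mouse 5, adjusted p = 0.128). None of 26 genes of oxidative phosphorylation or 14 of the citrate cycle passed by limma at either day, with an unadjusted p under 0.05 in 0 and 0 at day 2 and 1 and 1 at day 5. In fatty acid oxidation 1 of 17 rose at day 2 (Acaa2, 0.34 ± 0.078) and 1 at day 5 (Etfb, 0.40 ± 0.0824). Adiponectin (Adipoq) differed by -0.02 ± 0.051 at day 2 and -0.08 ± 0.0555 at day 5.

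**Figure D5:**
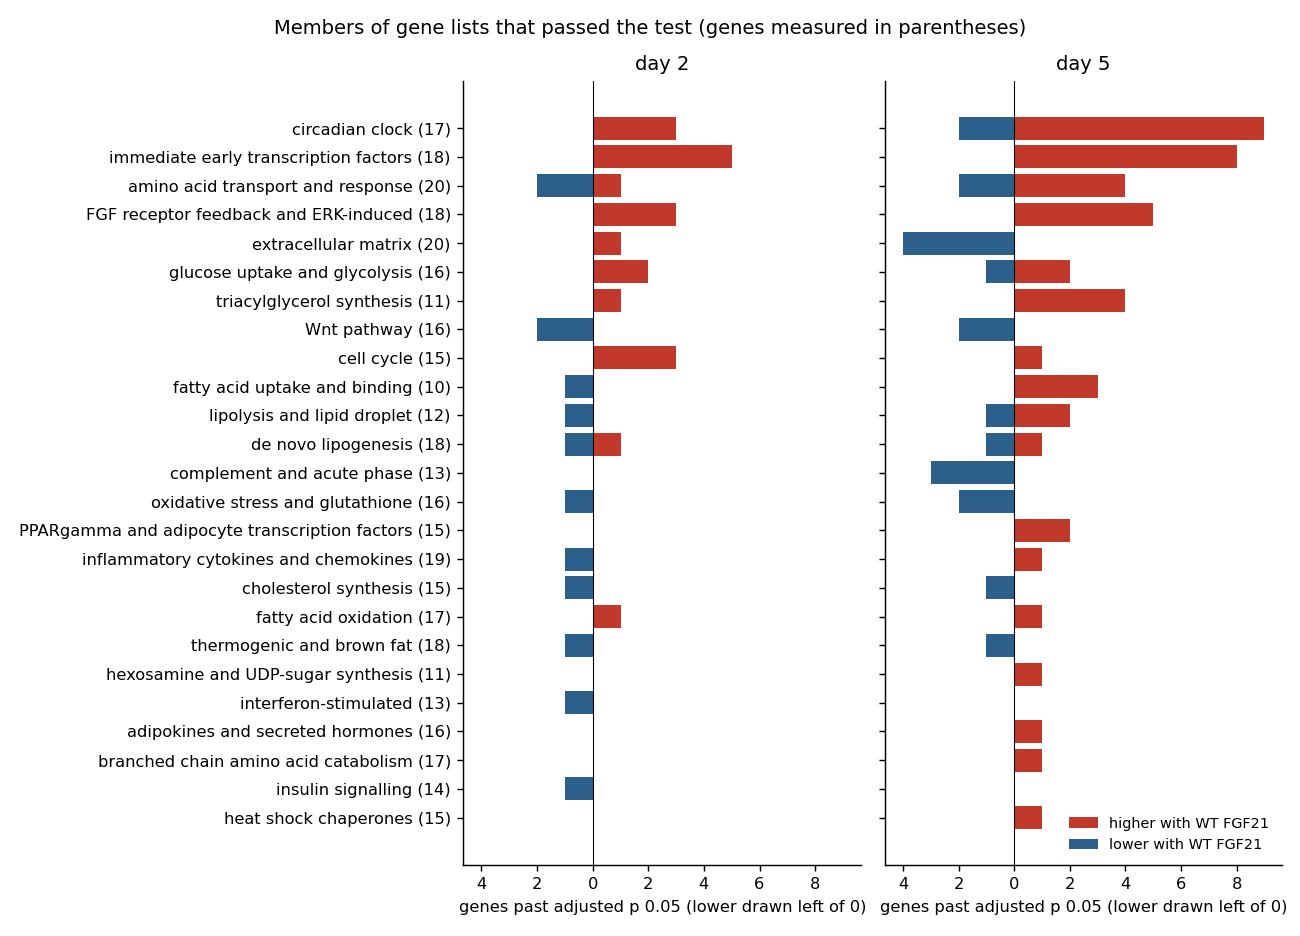
Number of genes of each pathway list that passed (adjusted p under 0.05), higher drawn to the right of 0 and lower to the left, at day 2 and day 5, with the number measured in parentheses. The clock, with 9 higher and 2 lower, and the immediate early genes, with 8 higher, have the longest bars at day 5, and pathway lists with no call at either day, cell type markers and the study's own markers are not drawn.

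In the Wnt pathway 2 of 16 genes fell at both days and none rose. Axin2, a feedback inhibitor and standard target of Wnt signalling, was 318.6, 217.7, 268.6, 302.1 and 280.4 in WT FGF21 mice at day 2, against 825.9, 789.2, 743.2 and 1137 in vehicle mice (fold 0.319, log2 difference -1.65 ± 0.206, adjusted p = 1.76e-08). The day 5 values were 354.9, 310.5, 317.5, 285.2 and 224.6 in WT FGF21 mice, against 775, 664.2 and 1186 in vehicle mice (-1.52 ± 0.224, adjusted p = 6.96e-07). No WT FGF21 mouse reached a vehicle mouse at either day. Axin2 fell also in IWAT, RPWAT and BAT of WT-HFD mice at day 2, by 1.40, 1.47 and 1.37, and at day 5, by 1.25, 1.48 and 1.65. These depots are again not independent repeats. Wnt5a, a noncanonical ligand, was 756.7 to 1038 in WT FGF21 mice at day 2, against 1108 to 1511 in vehicle mice (-0.60 ± 0.107), and fell by 0.42 at day 5, a call lost without vehicle mouse 5 (-0.39, adjusted p = 0.162).

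Of 20 extracellular matrix genes, 0 rose and 4 fell at day 5, with a median log2 difference of -0.26, while 1 rose (Thbs1) and 0 fell at day 2. They were the collagens Col5a1 (-0.56 ± 0.158) and Col6a3 (-0.52 ± 0.152), the protease Mmp14 (-0.67 ± 0.144) and elastin, Eln (-0.56 ± 0.158), and each lost its call without 1 vehicle mouse (without mouse 5, adjusted p = 0.169, 0.242 and 0.233 for Col5a1, Col6a3 and Eln, and without mouse 4, 0.105 for Mmp14). Adamts2, a procollagen protease outside the list, was 40.2 to 78.5 in WT FGF21 mice at day 5, against 170 to 311.8 in vehicle mice (-1.79 ± 0.205, adjusted p = 4.26e-10), and fell by 1.02 at day 2. Thbs1, thrombospondin, rose at day 2 by both of its probe sets (1.27 ± 0.313 and 1.93 ± 0.385). At day 5 the dimmer of them rose by 1.70 ± 0.419 (adjusted p = 0.009) and the brighter did not pass (0.93 ± 0.34, adjusted p = 0.161), and with both the WT FGF21 mice were above the vehicle mice. Markers of preadipocytes and fibroblasts summed to 24720 to 31550 in WT FGF21 mice and 28670 to 35320 in vehicle mice at day 5, with 1 of 12 lower (Cd34), and their part in the matrix result was not tested.

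The summed level of 10 endothelial markers was 14020 to 14970 in WT FGF21 mice and 16030 to 18070 in vehicle mice at day 2, and 11850 to 15810 in WT FGF21 mice and 17180 to 18880 in vehicle mice at day 5, with no overlap at either day. By gene, 1 of 10 fell at day 2 (Kdr) and 2 at day 5 (Tek and Cldn5), and the others did not pass. Cldn5, a tight junction protein of vessels, was 1133, 1907, 1405, 1896 and 1124 in WT FGF21 mice at day 5, against 3021, 3429 and 2826 in vehicle mice (fold 0.471, adjusted p = 1.16e-04). At day 2 it was 1628 to 2224 in WT FGF21 mice, against 2206 to 3329 in vehicle mice, and overlapped in 1 mouse. Kdr, a VEGF receptor, differed by -0.46 ± 0.128 at day 2 (adjusted p = 0.0314) and -0.41 ± 0.139 at day 5 (0.107), and Tek, the angiopoietin receptor, by -0.29 ± 0.116 and -0.55 ± 0.126. The endothelial genes Aplnr (-1.28 ± 0.228), Myct1 (-0.97 ± 0.119) and Esm1 (-1.22 ± 0.274), which the list does not hold, fell at day 2. Aplnr and Esm1 were named for the size of that fall and Myct1 for its difference between the diets at day 2. They are therefore not separate evidence beside the list. Kdr lost its call without vehicle mouse 3 (-0.42, adjusted p = 0.137) and Tek without vehicle mouse 4 (-0.49, 0.0609).

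Tagln and Acta2, genes of smooth muscle contraction, rose at day 2. Tagln (SM22), an actin-binding protein of smooth muscle, was 1534, 1888, 970.6, 2650 and 1853 in WT FGF21 mice at day 2, against 400.9, 356.6, 370.9 and 376.3 in vehicle mice (fold 4.5, log2 difference 2.17 ± 0.267, adjusted p = 1.18e-08), the largest rise that passed with the groups apart. On day 5 it was 2675, 670.2, 1569, 1196 and 552.4 in WT FGF21 mice, against 309.1, 335.7 and 384.1 in vehicle mice (1.73 ± 0.29). Acta2, smooth muscle actin, was 893.9, 922.9, 1403, 1186 and 1669 in WT FGF21 mice at day 2, against 415.3, 513.9, 588.3 and 377.4 in vehicle mice (1.34 ± 0.24, adjusted p = 1.2e-04), and overlapped at day 5 (0.11 ± 0.261). Acta1, skeletal actin, was 542.1, 905.9, 2786, 1233 and 2507 at day 2, against 277, 662.8, 388.9 and 360.2 in vehicle mice (1.74 ± 0.44). The other 11 of 12 skeletal muscle markers did not pass, Myh4, Ckm and Mylpf among them at mean log2 levels of 4.27, 4.24 and 5.50 in WT FGF21 mice of day 2, against 4.22, 4.12 and 5.47 in vehicle mice. Hspb7 and Mustn1, known from muscle, rose by 1.76 ± 0.456 and 1.25 ± 0.186 at day 2 and did not pass at day 5. Acta1 lost its call without WT FGF21 mouse 3 (1.47, adjusted p = 0.0699), mouse 5 (1.51, 0.0774) or vehicle mouse 1 (1.56, 0.073), and Hspb7 without vehicle mouse 1 (1.54, 0.0976).

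Of 15 cell cycle genes, all with a positive difference at day 2 and a median of 0.58, 3 passed (Mcm5, Mcm6 and Aurkb), and 1 passed at day 5 (Ccnb2). Mcm5, a subunit of the replicative helicase, was 174.5, 258.8, 302, 282.8 and 336.9 in WT FGF21 mice at day 2, against 150.7, 147, 147.5 and 123.8 in vehicle mice (0.90 ± 0.174, adjusted p = 4.52e-04). Mcm6 and Mcm7 of the same helicase rose by 0.69 ± 0.138 and 0.71 ± 0.087 at day 2, and differed by 0.04 ± 0.15 and 0.04 ± 0.0947 at day 5. For Mcm7 the difference between days passed (-0.67, adjusted p = 0.00638), and for Mcm5 it did not (-0.99, 0.162). The day 5 count was 6 with dim probe sets left out, 9 without WT FGF21 mouse 5 and 0 without WT FGF21 mouse 1 or 3 or vehicle mouse 1 or 5. Aurkb lost its call without vehicle mouse 5 (0.66, adjusted p = 0.119) and Ccnb2 without WT FGF21 mouse 1 (0.82, 0.214).

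In amino acid transport and response, 1 of 20 rose and 2 fell at day 2, and 4 rose and 2 fell at day 5. Psat1, an enzyme of serine synthesis, was 3525 to 4096 in WT FGF21 mice at day 2, against 2558 to 3273 in vehicle mice (0.36 ± 0.0782), and rose by 0.55 ± 0.0851 at day 5. The stress-induced factors Ddit3 (CHOP) and Chac1 rose at day 5 by 0.70 ± 0.138 and 0.93 ± 0.23, while 0 of 15 genes of the unfolded protein response passed by limma at either day (2 and 5 at an unadjusted p under 0.05 at day 2 and day 5). The transporter Slc6a13 fell at both days (-0.54 ± 0.156 and -0.61 ± 0.17), with an adjusted p of 0.145 at day 2 without vehicle mouse 2 and 0.208 at day 5 without vehicle mouse 5. Psat1 at day 2 had an adjusted p of 0.0548 without vehicle mouse 5, and Chac1 had 0.0727 without vehicle mouse 4. The glutathione transferases Gsta3 (-0.64 ± 0.157 and -0.70 ± 0.171 at day 2 and day 5) and Gsta4 (-0.71 ± 0.203 at day 5) fell, with Gsta3 at an adjusted p of 0.0793 without vehicle day 2 mouse 5 and 0.0736 without vehicle day 5 mouse 5, and Gsta4 at 0.52 without the last.

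Immune genes gave few calls. Of 19 cytokines and chemokines, Cxcl10 fell at day 2, a call lost without WT FGF21 mouse 5 (-0.80, adjusted p = 0.23), and Cxcl1 rose at day 5. In that list 9 of 19 differences were positive at day 2 and 2 at day 5, with medians of -0.06 and -0.42. At day 5, 9 of the 19 had an unadjusted p under 0.05. Of 13 interferon-stimulated genes 1 fell at day 2, where 0 differences were positive (median -0.35). Of 9 neutrophil and mast cell markers 0 passed by limma at day 5, with 2 at an unadjusted p under 0.05. At that day 0 of the 9 differences were positive (median -0.53). Cxcl1, a neutrophil attractant, was 307.7, 482.7, 304.1, 440.1 and 315.1 in WT FGF21 mice at day 5, against 70.5, 117.1 and 60.9 in vehicle mice (2.19 ± 0.34, adjusted p = 2.83e-06), and at day 2 mouse 2 reached 668.5 with mice 4 and 5 at 62 and 56.7. Of 13 complement and acute phase genes, C4b, Cfb and Hp fell at day 5 by 0.51, 0.57 and 0.21. The calls of these 3 were lost without vehicle mouse 4 (adjusted p = 0.0604 for C4b, 0.114 for Cfb and 0.108 for Hp). Itgad, an integrin subunit of macrophages, was 169.8, 245.8, 211.9, 259 and 191.5 in WT FGF21 mice at day 2, against 60.2, 69.3, 114.6 and 45.4 in vehicle mice (1.64 ± 0.312). At day 5 it was 463.7, 562.6, 506, 757.6 and 533.2 in WT FGF21 mice, against 108.5, 57.0 and 47.1 in vehicle mice (3.07 ± 0.339, adjusted p = 1.33e-10). The summed level of 16 macrophage markers overlapped between the groups at both days, at 27540 to 34430 in WT FGF21 mice and 27280 to 35980 in vehicle mice at day 5, and 1 of 16 passed at each day (Cd163, higher). The day 5 call of Cd163 was lost without vehicle mouse 1 (0.33, adjusted p = 0.431).

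Several of the largest changes lay outside the pathway and cell type lists. Fkbp5, a co-chaperone of the glucocorticoid receptor, was 1857, 1498, 1593, 1363 and 1981 in WT FGF21 mice at day 2, against 675.2, 501.3, 520.2 and 896.1 in vehicle mice (1.38 ± 0.214, adjusted p = 5.81e-06). It was 1076 to 1926 at day 5, against 481.9 to 857.2 in vehicle mice (1.34 ± 0.233), so all WT FGF21 mice were above all vehicle mice at both days. The keratin Krt79 rose by 1.26 ± 0.187 and 1.52 ± 0.204, the heparan sulfate proteoglycan Sdc4 by 1.42 ± 0.194 and 1.34 ± 0.211, and the transcription factor Grhl1 by 1.63 ± 0.209 and 1.15 ± 0.227 at day 2 and day 5. Net1, a RhoA exchange factor, rose by 1.37 ± 0.255 and 2.07 ± 0.278. Among falls, the neurotensin receptor Ntsr2 (-1.80 ± 0.251), the prostaglandin receptor Ptger3 (-1.28 ± 0.29), one of the study's markers counted below, and the cannabinoid receptor Cnr1 (-1.24 ± 0.282) passed at day 2 alone, and the E3 ligase Dtx4 (-1.5 ± 0.15), the protease Adamts4 (-1.59 ± 0.247) and Gadd45g (-1.52 ± 0.224) at day 5 alone.

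The study chose 32 white fat markers on a set of samples that includes these, so their direction here is not independent evidence. Of 31 measured, 4 rose and 6 fell at day 2, and 12 rose and 5 fell at day 5. The rises of both days were Maff, Spry4, Nr1d1 and Negr1, and the falls of both days include Pnpla3, Gsta3 and Zfp185, while Acot4 and Fabp5 rose at day 5 alone (1.56 ± 0.351 for Acot4).

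Between the days, 17 probe sets had a different response (0.0389%), 11 higher (0.0252%) and 6 lower (0.0137%) at day 5 minus day 2. The count was 42 without WT FGF21 day 2 mouse 1 and 10 without mouse 5 of the same group. Beside the clock genes they include Ier2 (1.47, adjusted p = 4.51e-04), the mitochondrial carrier Slc25a33 (0.95, 0.0167), Dtx4 (-1.05, 0.00638), Mcm7 and Wdr1, an actin disassembly factor (-0.75, 0.00165). WT FGF21 mice 4 and 5 of day 2 were low for Ier2, and their part in this difference was not tested. WT FGF21 mice 1, 2 and 3 of day 2, at 240.9 to 452.1, were also below those of day 5, at 503.3 to 841.8. Vehicle mice of the 2 days differed at 16 probe sets (0.0366%).

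Between the diets, the day 2 response in EWAT differed at 206 probe sets (0.472%), 104 higher (0.238%) and 102 lower (0.234%) in WT-HFD minus WT-chow. Of the 18 feedback genes 3 were lower and of the 18 immediate early genes 2, against 0.269% higher and 0.365% lower of all genes. The response was smaller in WT-HFD for Egr2 (-2.19 ± 0.482, adjusted p = 0.011), Ier2 (-1.28 ± 0.223, 5.53e-04) and Dusp4 (-1.57 ± 0.343, 0.0103). For the clock repressor Bhlhe40 the sign differed, with -0.56 in WT-HFD (adjusted p = 0.107) and 0.86 in WT-chow (3.24e-04), a difference of -1.42 ± 0.255 (9.19e-04). For Egr2, WT FGF21 gave a log2 difference of 1.19 in WT-HFD and 3.39 in WT-chow at day 2. WT FGF21 mice 4 and 5 of WT-HFD, low for Egr2 and Ier2, are among those compared. The count was 97 without WT FGF21 mouse 4, 99 without mouse 1, 390 without mouse 3, and 85 and 65 without vehicle mice 2 and 3. The response was larger in WT-HFD for Fkbp5 (1.38 in WT-HFD and 0.22 in WT-chow, difference 1.16 ± 0.294, adjusted p = 0.0427), Grhl1 (1.15 ± 0.287, 0.0385) and Pdk4 (0.80 ± 0.199, 0.0363). The sign again differed for Slc27a1, with 0.56 in WT-HFD and -0.59 in WT-chow, neither past the test (adjusted p = 0.17 and 0.0517), and a difference of 1.15 ± 0.283 (0.0347). Pck1 gave 0.51 in WT-HFD and -0.28 in WT-chow, where it did not pass (adjusted p = 0.183), a difference of 0.79 ± 0.171 (0.0102). At day 5 limma called 0 probe sets as different between the diets, 1983 (4.54%) having an unadjusted p under 0.05, with Egr1 rising by 2.63 in WT-HFD and 2.82 in WT-chow. Levels were not tested between the 2 diets, and only responses within a diet are compared.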

How the data were processed

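RNA was measured on custom Affymetrix mouse arrays. The authors ran RMA in Rosetta Resolver (its version is not given in the sources used here). The deposited values are linear intensity, and log2 of the deposited values was taken with no further scaling. Gene symbols come from the platform annotation, which names 30342 of 43681 probe sets, and older symbols were updated (Gm129 to Ciart, Bhlhb2 to Bhlhe40, Agtrl1 to Aplnr, D930001I22Rik to Fitm2).

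Group means of all 115 EWAT arrays (24 groups) were fitted with limma 3.58.1 in R 4.3.3, with an intensity-dependent prior variance, and p-values were adjusted by Benjamini-Hochberg over all probe sets. limma replaces the 1-way ANOVA of the methods, which was run as an alternative, without their filter on present calls. The test was checked on simulated data. The number of arrays limits the precision. In a list, the probe set with the highest mean stands for a gene, and 600 of 631 listed genes were measured.

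The genes named are, per day, the 15 largest rises and falls that passed with groups apart, up to 6 members of each list by adjusted p, Klb, Fgfr1, Adipoq, Ucp1, the study's markers and the 10 smallest adjusted p of each contrast between days or diets. Some were left out for room. Fos, Nr4a1, Clock, Per1, Nr1d2, Tef, Mustn1, Etv5, Myh4, Ckm and Mylpf fall outside this rule or were chosen after their values were seen. Members and lists were chosen with earlier results of these data known. Alternatives were the arrays in the fit, dim probe sets, normalization, prior variance, array weights, a replicate block, probe sets per gene, the fold minimum and leaving out each mouse.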

Additional observations from a re-analysis of the deposited data

Results flagged for a closer look

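A mouse far from the rest was found in 8 groups of values, 7.41% of the groups checked, and chance alone marks about 1 in 20 groups. At day 5, WT FGF21 mouse 5 was lowest for Per2 (1143), Acta2 (336.5) and Acta1 (82.6), WT FGF21 mouse 2 was lowest for Spry4 (1128), and WT FGF21 mouse 4 was highest for Dgat1 (4796). At day 2, vehicle mouse 5 was lowest for Mcm5 (123.8) and had the lowest median correlation with the other arrays among the vehicle mice (0.9832), and vehicle mouse 1 had the highest median intensity of its group (42).

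The response to WT FGF21 differed between the days by limma's test of the difference, day 5 minus day 2, for Ier2 (1.469), Arntl (-2.11), Per3 (1.663), Dbp (2.353), Hlf (1.492), Ciart (1.585), Mcm7 (-0.6666), Dtx4 (-1.051), Slc25a33 (0.9518) and Wdr1 (-0.7478), all on the log2 scale.

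The day 2 response differed between the diets, WT-HFD minus WT-chow, for Egr2 (-2.191), Ier2 (-1.28), Dusp4 (-1.568), Dusp6 (-0.5026), Dusp7 (-0.6825), Etv5 (-0.6923), Bhlhe40 (-1.415), Aplnr (-1.255) and Myct1 (-0.9413), where the WT-HFD value was the lower. It was the higher for Pck1 (0.7907), Slc27a1 (1.153), Pdk4 (0.8041), Fkbp5 (1.157), Grhl1 (1.153) and Usp35 (1.092).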

How the results depend on the processing

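The counts of 821 probe sets at day 2 and 988 at day 5 moved to 1537 and 1769 with array quality weights, 452 and 536 at a fold of at least 1.5, 3108 and 2705 by the methods' 1-way ANOVA at an unadjusted p, and 62 and 5 by that ANOVA after Benjamini-Hochberg adjustment. That ANOVA was run here on all probe sets, whereas the methods first kept those called present in most samples. With only the arrays of the compared groups, the day 5 count was 292. The 17 probe sets that differed between days became 1 with only the compared groups, 33 without dim probe sets, 102 with weights and 9 as gene means. The 16 of vehicle day 5 against vehicle day 2 became 0 with the compared groups, 4 with the arrays of the diet, 55 without dim probe sets, 9 with no trend, 1196 with weights and 97 with the replicate block. The 206 between diets at day 2 became 103 with the compared groups, 788 with weights and 129 with the block, and the 0 at day 5 became 1 with weights and 2 with the block. The cause was not tested. Leaving out 1 mouse gave 577 to 881 at day 2, 591 to 1375 at day 5, 10 to 42 between days, 3 to 209 between vehicle groups, and 65 to 390 and 0 to 1 between diets at day 2 and day 5. The other probe set of Arntl reversed at day 5 (0.2546). Of 148 gene calls, 59 lost significance without some mouse, 51 with only the compared groups, 27 with the arrays of the diet, 17 with the replicate block, 138 by the adjusted ANOVA and 0 with weights, and none changed sign. Same-numbered WT FGF21 and vehicle mice deviated with correlations of -0.297 to 0.21. Correlations over so few mice cannot settle whether the numbers pair them. The replicate block gave 776 at day 2, 785 at day 5 and 13 between days.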
